A study of Mus musculus with 20 samples.

Results

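Ptgs2, Has2, Tnfaip6, Ptx3, Areg, Ereg, Btc, Vcan, Edn2 and Rgs2 are 10 genes known for ovulation and the expansion of the cumulus, the cell layer around the oocyte. They were taken by name, not by their values, but with earlier results of these data known. All 10 were found by GENCODE M21 symbol among the 55487 genes of the count files, of which 55227 had such a symbol. Their expression was measured in granulosa cells (GCs) of 20 female mice of 2 lines, with 5 mice for each line and stage. In these cells Rgs2 and Vcan were expressed in every mouse with no difference between lines or stages that passed the test, whereas the other 8 genes had few reads, and each of them was at 0 in 2 to 14 of the 20 mice.

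The ctrl mice came from the unselected Dummerstorf control line and the FL1 mice from the Dummerstorf line bred for large litters, and both lines go back to the same founder population. Neither line carries an engineered allele, and no hormone treatment is named in the sources used here. The mice were 77 ± 5 days old, and estrus or diestrus was read from vaginal smears. From each mouse 7 to 10 of the largest follicles were opened, the oocyte with its cumulus cells was held back, and the mural GCs of that mouse were made into 1 library, so that follicles were pooled within a mouse and each library is 1 mouse. Reads were primed at the poly(A) tail and cover the last stretch of each transcript, with about 1 fragment for each molecule, so long and short transcripts are counted alike and levels can be set side by side between genes.

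Before ovulation the surge of luteinizing hormone (LH) reaches its receptor on mural GCs, and the cyclic AMP made in response switches on genes of the EGF family. Their shed ligands act on the EGF receptor of mural and cumulus cells, which then make prostaglandins and a matrix of hyaluronan, and this matrix spreads the cumulus cells apart. The induction is brief, and most of these genes are silent in follicles that have not met the surge.

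Between 5446576 and 8257041 reads per mouse were counted on genes. Levels are given as CPM, the count of a gene scaled to a common library size after TMM normalization, and a count of 3, used here as the limit of detection, was worth between 0.344 and 0.547 CPM in a mouse. Limits of this kind cover counting error only, and not the spread between mice. Of the 8 GC markers, 7 were read in every mouse, and their sum lay between 5029 and 13670 CPM. Inha, which encodes the inhibin alpha subunit, lay between 2725 and 7880 CPM, the FSH receptor Fshr between 31.6 and 202 CPM and the aromatase Cyp19a1 between 5.10 and 226 CPM, while Amh, the hormone of small growing follicles, was at 0 in 6 of 20 mice. Oocyte markers were also read, and their sum over 7 genes lay between 58.0 and 605 CPM. Of the 4 theca cell markers, Insl3 was at 0 in 19 of 20 mice, while Cyp17a1 lay between 1.13 and 233 CPM, Nr2f2 between 86.3 and 268 CPM and Ptch1 between 32.2 and 115.8 CPM.

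Of the 222766 reads counted on the 10 genes in all mice together, 86.0% fell on Rgs2 and 13.3% on Vcan. The other 8 genes shared 1472 reads. Of their 160 values, 1 for each gene and mouse, 77 were 0, 16 lay between 1 and 3 reads and 67 were above 3 reads. By mean level over the 20 mice the order was Rgs2 with 1443 ± 422 CPM (SD, n = 20), Vcan with 222 ± 88.2 CPM, Edn2 with 3.69 ± 5.47 CPM, Btc with 1.94 ± 1.59 CPM, Tnfaip6 with 1.69 ± 1.81 CPM, Ptgs2 with 0.895 ± 1.57 CPM, Ptx3 with 0.885 ± 1.51 CPM, Ereg with 0.809 ± 1.65 CPM, Has2 with 0.726 ± 1.07 CPM and Areg with 0.159 ± 0.402 CPM. Rgs2 was above Vcan in every mouse, as its lowest value of 636 CPM exceeded the highest Vcan value of 448 CPM. Vcan in turn was above the other 8 genes in every mouse, as its lowest value was 65.4 CPM and the highest value of any of them was 23.3 CPM. Among these 8 genes the ranges overlapped in every pair, since each of them had at least 1 mouse without a read. In a bulk sample, fewer cells that express a gene and less RNA per cell cannot be told apart.

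**Figure D1:**
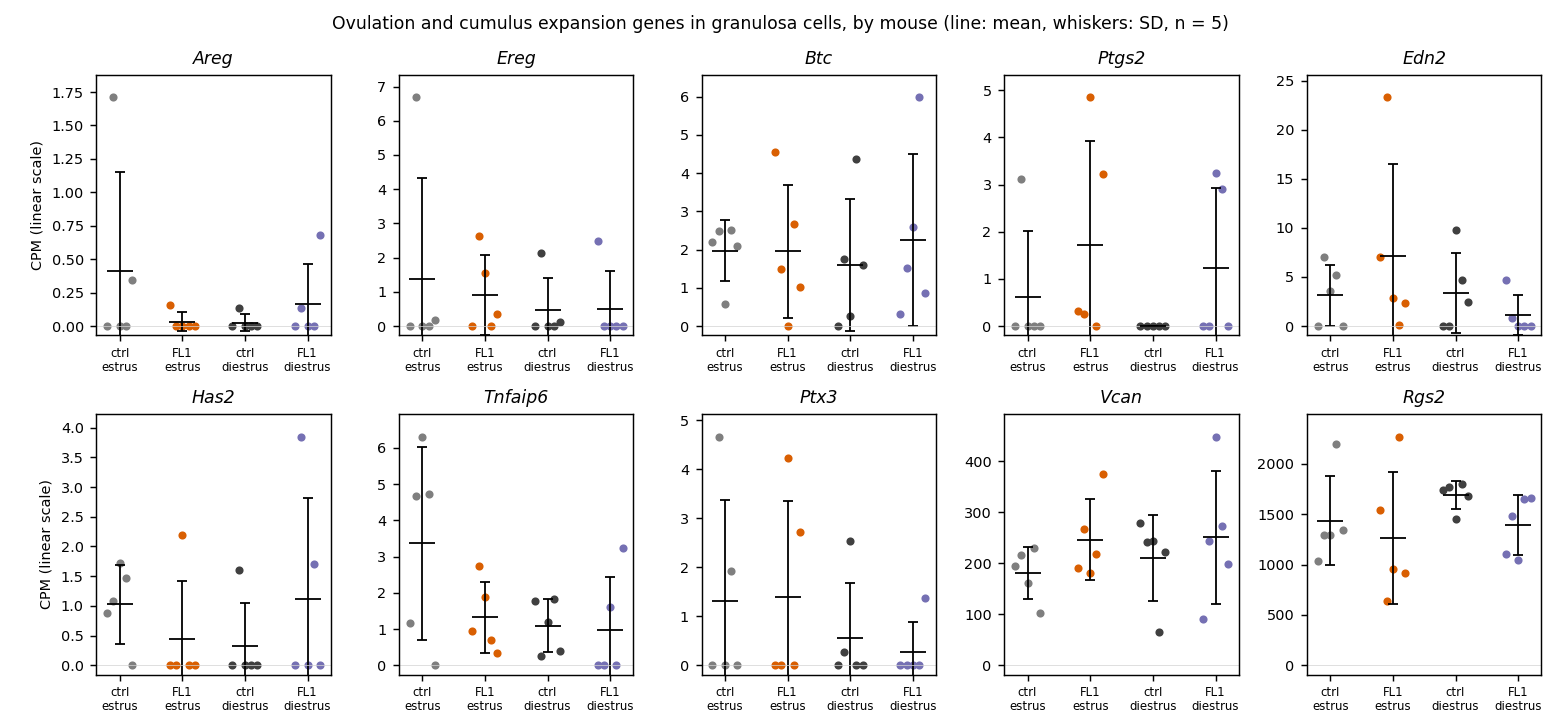
Level of each of the 10 genes in CPM (linear axis, a different range for each gene) in the 5 mice of each group, with 1 point for each mouse, a line at the mean and whiskers for the SD, which are cut where they pass below the axis. Rgs2 and Vcan are read in every mouse and their groups overlap, while each of the other 8 panels has points at 0, from 2 of 20 mice for Btc to 14 for Areg.

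The lines were compared within each stage and the stages within each line. This asks whether genes of ovulation are set differently in GCs of the high-fertility line and whether they differ between estrus and diestrus. No sampling time relative to the LH surge is given in the sources used here, so the response to the surge itself was not compared. Counts were tested with edgeR's quasi-likelihood test over all genes that had about 10 reads or more in at least 5 mice of a comparison. A gene passed the test at a Benjamini-Hochberg adjusted p of 0.05 or less, and a gene with fewer reads in the 2 groups compared was too low to compare. In estrus 5 of the 10 genes could be tested between the lines (Tnfaip6, Btc, Vcan, Edn2 and Rgs2) and 0 passed, where 0.769% of the 13007 genes tested did. In diestrus 3 could be tested (Btc, Vcan and Rgs2) and 0 passed, against 0.248% of 12886 genes. Between the stages, 5 could be tested in ctrl mice (the same as between the lines in estrus) and 0 passed, against 1.36% of 12850 genes. In FL1 mice 3 could be tested between the stages (Vcan, Edn2 and Rgs2) and 0 passed, against 0.221% of 13114 genes. None of these 16 tests had an unadjusted p under 0.05. In 1 fit over all 20 mice, 9 of the 10 genes had enough reads for each of these comparisons, and 0 passed. A count of 0 among 5 or 3 genes is near these background shares and is not a result about the genes.

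Whether the line difference changed with the stage was tested over all 20 mice, where 9 of the 10 genes had enough reads, all but Areg. Of these 0 passed, as did 0% of the 14938 genes tested. At an unadjusted p under 0.05 there were 710 genes and none of the 9, and DESeq2 also called 0 genes. The fitted interactions ran from -2.78 for Edn2 (95% interval -7.35 to 1.79) to 4.61 for Ptgs2 (-0.69 to 9.90) on the log2 scale, and that of Vcan was -0.19 (-1.17 to 0.79) and that of Rgs2 -0.10 (-0.85 to 0.65). In the main fits and all alternatives together, 612 for the 10 genes, 0 passed, and DESeq2 gave no adjusted p in 9 of them. The lowest adjusted p by edgeR's quasi-likelihood test was 0.150, for Edn2 between the stages of FL1 mice without FL1 diestrus mouse 1.

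The spread between mice set how small a difference could have been found. The biological coefficient of variation in the fit over all mice was 0.299 for Rgs2 and 0.378 for Vcan, below the median of 0.484 over 14938 genes. For the 7 sparse genes in that fit it lay between 1.20 and 2.55, which put them between percentile 77.7 and 99.5 of all genes tested.

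**Figure D2:**
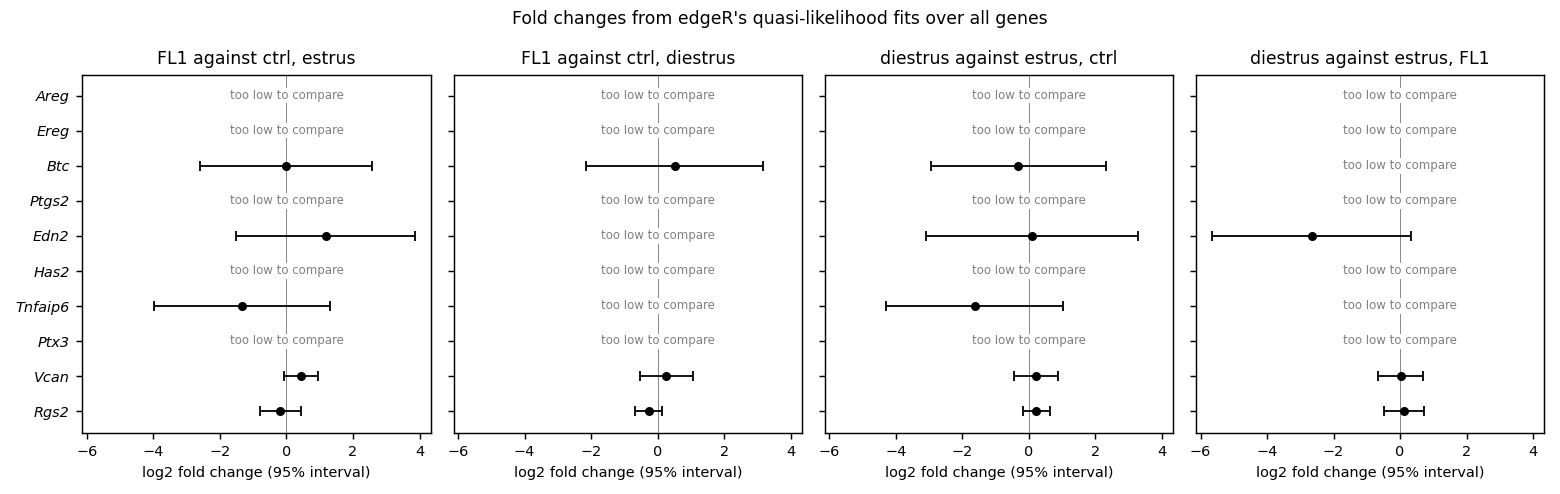
Log2 fold change of each gene in the 4 comparisons of 2 groups, with its 95% interval from edgeR's quasi-likelihood fit, and genes with too few reads marked as too low to compare. Every interval includes 0, and those of Vcan and Rgs2 are the narrowest.

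Because the genes of this response are known targets of cyclic AMP, the windows around their starts were searched for the cAMP response element TGACGTCA and its shorter form TGACG, both strands included. RefSeq promoter windows (GRCm38.p6), which run from 250 bases before to 50 bases after the gene start, were at hand for 8 of the 10 genes, all but Has2 and Ereg. The full element was found in 1 of them, Areg, and in 1.79% of all 32851 windows. The shorter form, which is part of the full one, was found in 4, namely Areg, Rgs2, Ptgs2 and Btc, and in 20.8% of all windows. The 250 bases before the start are shown for Rgs2 and Vcan, the genes that were read in every mouse, and for Areg, the gene with the fewest reads. Capitals mark the shorter form on either strand, and each sequence is given 5′ to 3′ on the strand of its gene.
Rgs2, chr1:144004150-144004399, minus strand: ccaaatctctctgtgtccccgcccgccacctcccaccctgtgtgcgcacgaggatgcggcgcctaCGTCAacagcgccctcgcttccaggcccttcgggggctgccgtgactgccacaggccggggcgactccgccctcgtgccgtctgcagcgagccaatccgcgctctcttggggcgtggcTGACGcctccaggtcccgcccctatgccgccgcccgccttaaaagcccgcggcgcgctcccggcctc
Vcan, chr13:89742513-89742762, minus strand: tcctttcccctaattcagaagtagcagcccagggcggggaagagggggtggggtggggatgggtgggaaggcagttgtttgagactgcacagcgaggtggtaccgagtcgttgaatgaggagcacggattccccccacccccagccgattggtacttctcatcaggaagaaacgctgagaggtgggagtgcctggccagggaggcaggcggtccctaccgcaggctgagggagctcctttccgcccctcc
Areg, chr5:91139349-91139598, plus strand: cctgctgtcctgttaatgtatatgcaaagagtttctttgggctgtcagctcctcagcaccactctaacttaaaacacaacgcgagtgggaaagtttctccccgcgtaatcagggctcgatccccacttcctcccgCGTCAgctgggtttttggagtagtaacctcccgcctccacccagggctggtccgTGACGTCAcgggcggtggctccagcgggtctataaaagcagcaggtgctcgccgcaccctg
In the Areg sequence the capitals run through the full element, which starts 61 bases before the gene start, and a further match lies farther upstream. The Rgs2 sequence has matches 185 and 67 bases before the gene start, and the Vcan sequence has none. These matches are letters in a window, and binding was not measured.

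Areg, Ereg and Btc encode the EGF-like ligands amphiregulin, epiregulin and betacellulin. They lie near each other on chromosome 5 (GRCm38), together with the gene of the related ligand Epgn, in a stretch of 375.5 kb. Areg (ENSMUSG00000029378, 91139599 to 91148432, plus strand) had the fewest reads of all 10 genes, 20 in all mice together. In estrus it had 0, 11, 0, 0 and 2 reads in the 5 ctrl mice and 1, 0, 0, 0 and 0 reads in the 5 FL1 mice. In diestrus it had 0, 1, 0, 0 and 0 reads in ctrl mice and 0, 1, 0, 0 and 4 reads in FL1 mice. Only ctrl estrus mouse 2 and FL1 diestrus mouse 5 were above 3 reads, and Areg was too low to compare in every comparison.

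Ereg (ENSMUSG00000029377, 91074622 to 91093646, plus strand) was read in 8 of 20 mice. Its reads were 0, 43, 0, 0 and 1 in ctrl mice and 0, 21, 10, 0 and 2 in FL1 mice in estrus, and 0, 16, 0, 0 and 1 in ctrl mice and 16, 0, 0, 0 and 0 in FL1 mice in diestrus. Each group thus had at least 1 mouse with 16 reads or more and 2 or more mice with none, and the gene was too low to compare between any pair of groups. Gm19610, which overlaps Ereg on the other strand, had 14 reads in all mice together, and the strand setting of the counting is not given in the sources used here.

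Btc (ENSMUSG00000082361, 91357261 to 91402994, minus strand) was the steadiest of the 3 ligands, with reads in 18 of 20 mice. In estrus the ctrl mice had 15, 16, 5, 17 and 12 reads, or 1.97 ± 0.802 CPM (SD, n = 5), and the FL1 mice had 29, 12, 0, 19 and 6 reads, or 1.95 ± 1.75 CPM. In diestrus the ctrl mice had 0, 13, 2, 24 and 12 reads, or 1.60 ± 1.74 CPM, and the FL1 mice had 2, 11, 16, 35 and 5 reads, or 2.25 ± 2.25 CPM. All 4 groups overlapped. The log2 fold change of FL1 against ctrl was -0.01 (95% interval -2.60 to 2.58) in estrus and 0.51 (-2.15 to 3.18) in diestrus, so that at this depth a several-fold difference in either direction would lie within the interval.

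Ptgs2 and Edn2 encode makers of short-lived signals. Ptgs2 (ENSMUSG00000032487, chromosome 1, 150100031 to 150108227, plus strand) is the inducible cyclooxygenase that starts prostaglandin synthesis. It was at 0 in all 5 ctrl mice in diestrus, which with 33897025 reads over the group allows a level of up to 0.0885 CPM. In estrus the ctrl mice had 0, 20, 0, 0 and 0 reads and the FL1 mice 2, 2, 31, 0 and 19 reads, and in diestrus the FL1 mice had 0, 0, 20, 17 and 0 reads. Thus 1 of 10 ctrl mice and 4 of 10 FL1 mice were above 3 reads. Ptgs2 was too low to compare in all 4 fits of 2 groups. Without the filter on low counts, its fitted log2 value was 6.03 for the line difference in diestrus and -5.12 for the stage difference in ctrl mice, with adjusted p-values of 0.318 and 0.228 by edgeR's quasi-likelihood test. With a group at 0, these fitted values depend on the prior count.

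Edn2 (ENSMUSG00000028635, chromosome 4, 120161206 to 120167360, plus strand) encodes endothelin 2, a peptide that makes smooth muscle contract and that GCs are known to make briefly when the follicle ruptures. In estrus the ctrl mice had 0, 45, 31, 35 and 0 reads, or 3.14 ± 3.12 CPM, and the FL1 mice had 45, 186, 18, 1 and 14 reads, or 7.14 ± 9.37 CPM. In diestrus the ctrl mice had 0, 0, 73, 26 and 18 reads, or 3.38 ± 4.07 CPM, and the FL1 mice had 30, 6, 0, 0 and 0 reads, or 1.103 ± 2.04 CPM. The high mean of FL1 mice in estrus came from mouse 2, whose 23.3 CPM was the highest value of Edn2 in any mouse. In FL1 mice the log2 fold change of diestrus against estrus was -2.66 ± 1.42 (SE), with a 95% interval of -5.66 to 0.34 and an adjusted p of 0.609 by edgeR's quasi-likelihood test. It was -1.48 without FL1 estrus mouse 2 and -4.93 without FL1 diestrus mouse 1, and -4.15 with a replicate block, and passed in none of these fits. For FL1 against ctrl in estrus the value was 1.18 (-1.51 to 3.86), and it was -0.02 without FL1 estrus mouse 2.

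Has2, Tnfaip6, Ptx3 and Vcan make or hold the cumulus matrix. Has2 (ENSMUSG00000022367, chromosome 15, 56665627 to 56694539, minus strand) is the hyaluronan synthase of cumulus expansion. It had 6, 7, 15, 10 and 0 reads in ctrl mice and 0, 0, 14, 0 and 0 reads in FL1 mice in estrus. In diestrus it had 0, 12, 0, 0 and 0 reads in ctrl mice and 0, 28, 0, 10 and 0 reads in FL1 mice. Thus 4 of 5 ctrl mice in estrus were above 3 reads, against 1 of 5 FL1 mice in estrus, 1 of 5 ctrl mice and 2 of 5 FL1 mice in diestrus. Has2 was too low to compare between any pair of groups, and without the filter its adjusted p by edgeR's quasi-likelihood test was 0.873 for the line difference in estrus and 0.792 for the stage difference in ctrl mice. Has2os, on the other strand, had 36 reads in all mice together.

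Tnfaip6 (ENSMUSG00000053475, chromosome 2, 52038009 to 52056686, plus strand) encodes TSG-6, which moves the heavy chains of inter-alpha-trypsin inhibitor onto hyaluronan. In estrus the ctrl mice had 8, 30, 55, 32 and 0 reads, or 3.37 ± 2.66 CPM, and the FL1 mice had 6, 22, 12, 5 and 2 reads, or 1.32 ± 0.981 CPM. In diestrus the ctrl mice had 10, 2, 9, 10 and 3 reads, or 1.097 ± 0.739 CPM, and the FL1 mice had 0, 0, 10, 0 and 19 reads, or 0.9747 ± 1.45 CPM. The 3 highest values of all 20 mice were those of ctrl estrus mice 2, 3 and 4, while ctrl estrus mouse 5 had no read, so the groups overlapped. The log2 fold change was -1.34 ± 1.25 (SE) for FL1 against ctrl in estrus and -1.62 ± 1.26 for diestrus against estrus in ctrl mice, with adjusted p-values of 0.804 and 0.717 by edgeR's quasi-likelihood test.

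Ptx3 (ENSMUSG00000027832, chromosome 3, 66219910 to 66225805, plus strand) encodes a pentraxin that ties the modified hyaluronan strands together. It was read in 7 of 20 mice, with 0, 30, 0, 13 and 0 reads in ctrl mice and 0, 0, 27, 0 and 16 reads in FL1 mice in estrus, and 0, 2, 19, 0 and 0 reads in ctrl mice and 0, 0, 0, 0 and 8 reads in FL1 mice in diestrus. No group had more than 2 mice above 3 reads, and Ptx3 was too low to compare between any pair of groups. Veph1, which overlaps it on the other strand, had 17 reads in all.

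Taken by mouse, the 8 sparse genes were spread unevenly. Ctrl estrus mouse 2 was the only mouse in which all 8 were above 3 reads, with 202 reads on them together and the highest Ptx3, Areg and Ereg counts of all mice. FL1 estrus mouse 2 had more reads, 243, of which 186 were on Edn2, and only 4 of the 8 genes above 3 reads. FL1 estrus mouse 3 had 6 of them above 3 reads and the highest Ptgs2 count. Summed over the 8 genes, the counts per mouse ran in estrus from 15 to 202 in ctrl mice, with a median of 1.1e+02, and from 25 to 243 in FL1 mice, with a median of 83. In diestrus they had a median of 46 in both lines, and ran from 10 to 1.0e+02 in ctrl mice and from 36 to 62 in FL1 mice. The ranges of all 4 groups overlapped. The 2 mice with the highest sums were in estrus, but so were 2 of the 3 mice with the lowest, ctrl estrus mouse 5 with 15 and FL1 estrus mouse 4 with 25 reads.

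**Figure D3:**
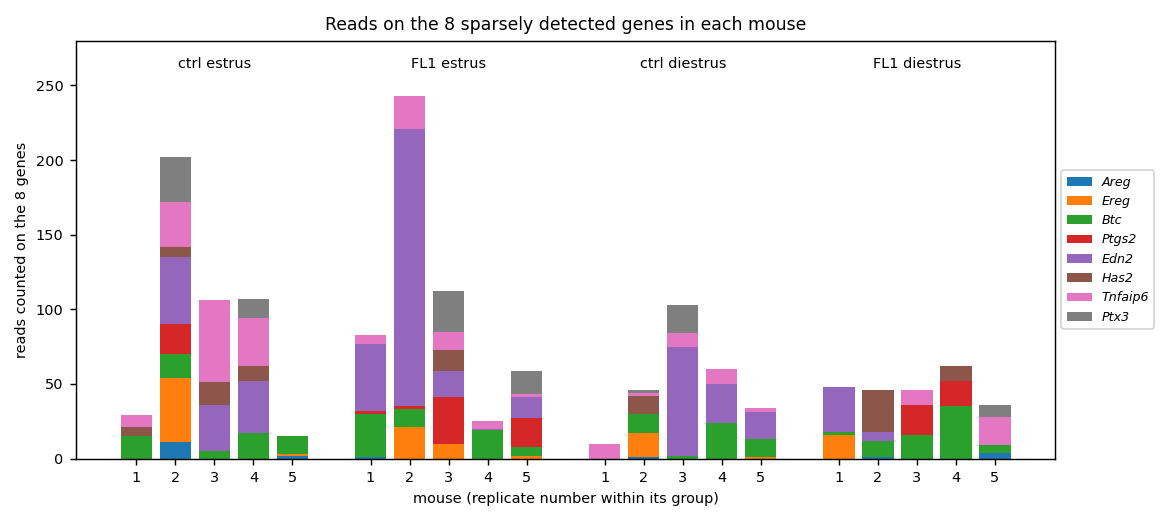
Reads counted on the 8 sparsely detected genes in each of the 20 mice, stacked by gene, with the mice ordered by group and replicate number. Ctrl estrus mouse 2 holds reads of all 8 genes (202 together), most of the 243 reads of FL1 estrus mouse 2 are Edn2, and every diestrus mouse stays below these 2 mice.

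Vcan (ENSMUSG00000021614, chromosome 13, 89655312 to 89742509, minus strand) encodes versican, a large proteoglycan that binds hyaluronan and is cut by proteases of the ADAMTS family. It ranked 641 by mean CPM among the 26886 genes with reads. In estrus the ctrl mice had 195, 216, 162, 229 and 102.5 CPM, or 181 ± 50.8 CPM (SD, n = 5), and the FL1 mice had 191, 268, 180.4, 218 and 375 CPM, or 246 ± 79.6 CPM. In diestrus the ctrl mice had 279.6, 242.5, 245, 65.4 and 222 CPM, or 211 ± 83.9 CPM, and the FL1 mice had 91.1, 244.5, 448, 273 and 199 CPM, or 251.3 ± 130.1 CPM. All groups overlapped, and the highest mouse was 6.86 times the lowest. Vcan was higher by 0.44 (log2 scale, 95% interval -0.07 to 0.95) in FL1 than in ctrl mice in estrus, with an adjusted p of 0.550 by edgeR's quasi-likelihood test, and by 0.26 (-0.55 to 1.06) in diestrus. The difference between the stages was 0.21 (-0.44 to 0.87) in ctrl mice and 0.02 (-0.66 to 0.69) in FL1 mice. Gm4117, which overlaps Vcan on the other strand, had 576 reads in all mice together, against 29646 on Vcan.

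The spread of Vcan between mice was shared with other genes. Of all genes tested, Ptprf, which encodes a receptor-type tyrosine phosphatase, had the pattern most like that of Vcan, with a Pearson r of log2 CPM of 0.866 over the 20 mice (0.939 after the group means were removed), followed by Nisch with 0.837. The 3 mice with the least Vcan, ctrl estrus mouse 5, ctrl diestrus mouse 4 and FL1 diestrus mouse 1, had 65.4 to 102.5 CPM, and the next mouse had 162 CPM. The same 3 mice had the least Ptprf, 70.1 to 94.0 CPM, against at least 140.5 CPM in the other 17 mice. Both values of a mouse came from 1 library, and the genes were picked as the most alike among all genes, so these values describe and do not test a relation.

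**Figure D4:**
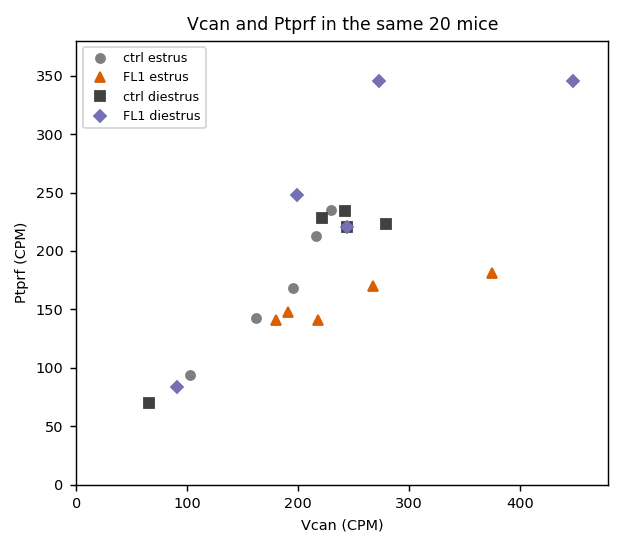
Vcan against Ptprf in CPM, with 1 point for each of the 20 mice and a symbol for each group (linear axes from 0). The 3 mice with the least Vcan are also the 3 with the least Ptprf, and each comes from a different group.

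Rgs2 (ENSMUSG00000026360, chromosome 1, 143999338 to 144004161, minus strand) encodes a regulator of G protein signaling that shortens the signal of Gq-coupled receptors. It was among the strongest expressed genes of these GCs and ranked 39 by mean CPM among the 26886 genes with reads. In estrus the ctrl mice had 1035, 1298, 1297, 2193 and 1343 CPM, or 1433 ± 442 CPM (SD, n = 5), and the FL1 mice had 1542, 636, 952, 2268 and 921 CPM, or 1264 ± 651 CPM. In diestrus the ctrl mice had 1735, 1769, 1455, 1802 and 1681 CPM, or 1688 ± 138 CPM, and the FL1 mice had 1100, 1478, 1045, 1651 and 1665 CPM, or 1388 ± 298 CPM. Ctrl mice in diestrus lay closest together, and the lowest and the highest of all 20 values were both from FL1 mice in estrus, mice 2 and 4. Rgs2 of FL1 against ctrl mice differed by -0.18 (log2 scale, -0.79 to 0.43) in estrus and by -0.28 (-0.67 to 0.12) in diestrus. Between the stages the difference was 0.23 (-0.18 to 0.64) in ctrl and 0.12 (-0.49 to 0.73) in FL1 mice. The adjusted p-values by edgeR's quasi-likelihood test lay between 0.746 and 0.9998. Each of these intervals lay within 1 unit of 0 on the log2 scale. The narrowest interval of a tested sparse gene, that of Btc between the lines in estrus, was wider, as given above.

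The genes whose pattern was most like that of Rgs2 over the 20 mice were Ddc, which encodes aromatic L-amino acid decarboxylase, with a Pearson r of log2 CPM of 0.783, and Rhobtb1 with 0.763. FL1 estrus mouse 2, the mouse with the least Rgs2, was also the mouse with the least Rhobtb1, 42.3 CPM against at least 73.1 CPM in the others. It had no Ddc read, and neither had ctrl estrus mouse 1, with 1035 CPM of Rgs2. For the 7 sparse genes that could be set against other genes, the 14 closest partners had r values between 0.683 and 0.849, and 10 of these partners had a mean under 10 CPM themselves.

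The other genes of the response were described from lists of 86 genes, ordered by their place in the pathway. Of the genes tested, 3 of 62 passed between the lines in estrus, 0 of 59 between the lines in diestrus, 6 of 59 between the stages in ctrl mice, 1 of 61 between the stages in FL1 mice and 0 of 65 in the interaction. These are 4.84%, 0%, 10.2%, 1.64% and 0% of the list genes tested, against 0.769%, 0.248%, 1.36%, 0.221% and 0% of all genes tested. The median log2 fold change over the tested genes was 0.09, 0.10, -0.0022, 0.16 and 0.11 in this order, against 0.01, 0.01, 0.00, 0.01 and 0.00 over all genes tested. These lists were chosen with earlier results of these data known, so the counts describe them and support nothing about them.

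At the start of the response stand the LH receptor and the transcription factors behind it, a list of 11 genes of which 1 passed between the lines and 1 between the stages. Lhcgr, the LH receptor, had 4.97, 4.82, 36.0, 9.01 and 29.7 CPM in ctrl mice and 74.3, 415, 58.9, 44.2 and 97.4 CPM in FL1 mice in estrus, without overlap. It was higher in FL1 mice by 3.02 ± 0.647 (SE, log2 scale; adjusted p of 0.0327 by edgeR's quasi-likelihood test), and by 2.02 with an adjusted p of 0.105 without FL1 estrus mouse 2. It also missed the threshold without ctrl estrus mouse 1, 2 or 4, and passed in 6 of the 10 fits that left out a mouse. With robust estimation its adjusted p was 0.214 and with the replicate block 0.0820 by edgeR's quasi-likelihood test. In that mouse, the mouse with the most Lhcgr, Edn2 was highest and Rgs2 lowest of all 20 mice. Pparg, a nuclear receptor that GCs express before ovulation, was higher in diestrus than in estrus in ctrl mice, by 1.07 (adjusted p of 0.0486 by edgeR's quasi-likelihood test), and passed in 2 of 10 fits that left out a mouse but not in the fit over all 20 mice (adjusted p of 0.117). The orphan receptor Nr5a2 and the stimulatory G protein Gnas were among the strongest expressed genes of the list, with group means between 1133 and 1588 CPM and between 702 and 875 CPM, and neither passed a test, nor did the coregulator Nrip1.

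Among the 13 genes of the EGF receptor arm, 9 could be tested and 1 passed. Hbegf, a further ligand of the EGF receptor, had 4.09, 16.6, 6.54, 10.3 and 11.8 CPM in estrus and 36.5, 40.1, 50.7, 58.1 and 35.3 CPM in diestrus in ctrl mice, without overlap. The change of 2.15 ± 0.371 (log2 scale) had an adjusted p of 0.00747 by edgeR's quasi-likelihood test. It passed in 10 of 10 fits that left out a mouse. In FL1 mice the change was 1.39 (adjusted p of 0.396 by edgeR's quasi-likelihood test), and the interaction did not pass. The receptor Egfr itself had group means between 86.0 and 109.4 CPM, and Adam17, the sheddase of its ligands, was read in every group, and neither gene passed a test.

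The prostaglandin arm, 11 genes, had 9 that could be tested in estrus, of which 1 passed. Hpgd, the enzyme that inactivates prostaglandins, had 70.3, 73.2, 126, 135 and 146 CPM in ctrl mice and 24.2, 7.39, 24.4, 69.4 and 12.6 CPM in FL1 mice in estrus. On the log2 scale Hpgd was lower in FL1 mice and fell by 1.996 (adjusted p of 0.0424 by edgeR's quasi-likelihood test), and the highest FL1 value was just under the lowest ctrl value. It passed in 2 of 10 fits that left out a mouse, and not with robust estimation (adjusted p of 0.111). In diestrus its difference was -1.57 with an adjusted p of 0.0950. Ptges, which makes prostaglandin E2 from the product of Ptgs2, had group means between 121 and 196 CPM, and Ptges, Ptges3 and the receptor Ptger2 passed no test.

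The matrix list of 19 genes had 11 that could be tested, of which 2 passed in ctrl mice and 1 in FL1 mice, all between the stages. Itih5, a relative of the heavy chains that Tnfaip6 moves, was higher in diestrus by 1.58 in ctrl and by 1.70 in FL1 mice, with adjusted p-values of 0.0473 and 0.0469 by edgeR's quasi-likelihood test. In ctrl mice the value was 0.97 without ctrl diestrus mouse 5, which alone had 1206 CPM, and in each line Itih5 passed in 3 of 10 fits that left out a mouse. It missed the threshold with robust estimation (adjusted p of 0.1001 in ctrl and 0.0547 in FL1 mice by edgeR's quasi-likelihood test) and with the replicate block (0.0550 and 0.0511). Adamts5, a protease that cuts versican and aggrecan, had 28.3 to 62.1 CPM in estrus and 132 to 332 CPM in diestrus in ctrl mice, a change of 2.58 ± 0.280 with an adjusted p of 0.000359 by edgeR's quasi-likelihood test. In FL1 mice the change was 1.83 (adjusted p of 0.118 by edgeR's quasi-likelihood test), and the interaction did not pass. Adamts1, the protease of versican that LH induces, was not called by edgeR, with group means of 40.1 CPM in ctrl and 153 CPM in FL1 mice in estrus and of 22.0 CPM and 35.5 CPM in diestrus, and 454.6 CPM in FL1 estrus mouse 2. Its adjusted p between the stages of FL1 mice was 0.0853 by edgeR's quasi-likelihood test and 0.00306 by DESeq2. The hyaluronan receptor Hmmr and the hyaluronidase Hyal2 passed no test.

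Of the 6 genes that carry the oocyte's signal to its somatic cells, 2 passed in ctrl mice between the stages and 0 in FL1 mice. Bmpr2, the receptor of BMP15 and GDF9, rose from 615 CPM in estrus to 1514 CPM in diestrus (group means), by 1.29 ± 0.183 on the log2 scale with an adjusted p of 0.00209 by edgeR's quasi-likelihood test. Tgfbr1, a partner receptor of GDF9, rose from 86.0 to 187 CPM, by 1.11 ± 0.194 with an adjusted p of 0.00824 by edgeR's quasi-likelihood test. In FL1 mice the same changes were 0.68 and 0.69 and did not pass. The difference between the lines in this change was -0.61 for Bmpr2 and -0.42 for Tgfbr1 and did not pass either (adjusted p of 0.9998 by edgeR's quasi-likelihood test for both). The ligands Gdf9 and Bmp15, which the oocyte makes, were read in every mouse, with 3.82 to 203 CPM and 1.88 to 110.9 CPM, and their part in any of these differences was not tested.

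The endothelin arm (6 genes) and the list of RGS proteins and Gq signaling (10 genes) had 4 and 6 genes that could be tested between 2 groups, and 0 passed in any comparison. The endothelin receptor Ednra had group means between 59.2 and 102.2 CPM, Ednrb between 4.95 and 18.3 CPM and the converting enzyme Ece1 between 213 and 324 CPM. Gna11 and Gnaq, the G proteins on which Rgs2 acts, had group means between 164.5 and 232.5 CPM and between 138 and 171 CPM, and Rgs10 had between 19.1 and 37.7 CPM.

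Of 10 other genes that are induced at ovulation, 1 passed in estrus. Akr1c18, which inactivates progesterone, had 39.2 to 184 CPM in ctrl mice and 626 to 3589 CPM in FL1 mice in estrus, a change of 4.02 ± 0.4999 with an adjusted p of 0.000306 by edgeR's quasi-likelihood test. It is also 1 of the 4 luteal cell markers, and the sum of these 4 lay between 1776 and 4746 CPM in ctrl and between 6367 and 9604 CPM in FL1 mice in estrus. Over all mice the means were 4577 CPM for Hsd3b1, 660.9 CPM for Akr1c18, 80.1 CPM for Parm1 and 74.65 CPM for Ptgfr. Hsd3b1 thus made up most of the sum, which also holds Akr1c18 itself. The part of luteal cells in the Akr1c18 difference was not tested. Ctsl, Il6st and Pappa passed no test. Nts, neurotensin, was named after its values were seen. It had 0, 11.4, 3.79, 6.496 and 3.64 CPM in ctrl mice and 24.4, 10.8, 1.41, 0.141 and 17.2 CPM in FL1 mice in estrus, and no read in any of the 10 mice in diestrus. The filter left Nts out of the comparisons of the stages, and DESeq2, which was run without that filter, gave adjusted p-values of 0.000498 in ctrl and 2.15e-06 in FL1 mice. Since Nts was named after its values were seen, these p-values describe its pattern and do not test it.

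Among the other marker lists, the 6 macrophage markers summed to 15.1 to 42.3 CPM in ctrl and 35.4 to 98.5 CPM in FL1 mice in estrus, and to 7.69 to 16.0 CPM and 9.91 to 68.8 CPM in diestrus. The 5 endothelial markers lay between 9.84 and 83.5 CPM and the 4 red blood cell markers between 42.6 and 1599 CPM over all mice. The 6 markers of stromal or smooth muscle cells summed to 464 to 1313 CPM in estrus and 208 to 778 CPM in diestrus in ctrl mice, and in FL1 mice to 716 to 1529 CPM and 98.6 to 1643 CPM. Within the macrophage list Ptprc and Cd68 were at 0 in 8 of 20 mice each, Adgre1 in 6, Csf1r in 4 and C1qa in 1, and Lyz2 was read in every mouse, with 3.28 to 68.5 CPM. Whether these cells had a part in the differences named above was not tested.

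**Figure D5:**
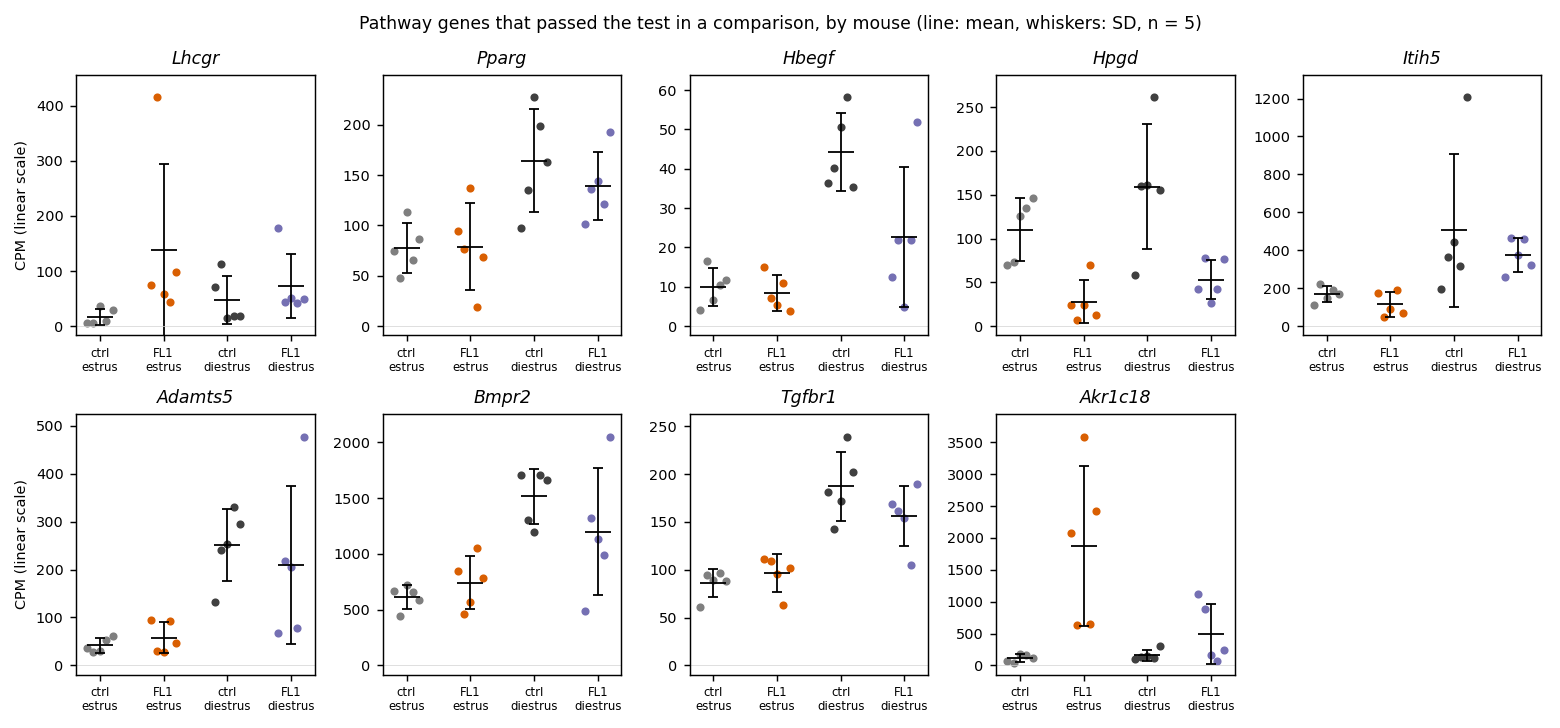
Level in CPM (linear axis, a different range for each gene) of the 9 pathway genes that passed the test in at least 1 comparison, in the 5 mice of each group, with a line at the mean and whiskers for the SD, cut where they pass below the axis. Lhcgr, Hpgd and Akr1c18 separate the lines in estrus. Hbegf, Adamts5, Bmpr2 and Tgfbr1 separate the stages in ctrl mice, and Itih5 separates them in FL1 mice.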

How the data were processed

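Per the labels, GCs of 20 mice were sequenced with a 3′ kit, 5 mice for each line and stage, and groups and replicate numbers were taken from the labels. The numbers mark different mice. Raw counts for each Ensembl gene were deposited by the authors, from reads aligned with STAR to GRCm38 according to the submitters' processing notes. The strand setting of the counting is not given in the sources used here. Between 48.9% and 58.4% of the reads of a file lay on genes. Rows without a gene, namely unmapped (3.97% to 9.97%), multimapping (23.2% to 32.8%), ambiguous and no-feature reads, were left out of library sizes and tests.

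Counts were tested in R 4.3.3 with edgeR 4.0.16, using TMM, the filter filterByExpr (minimum count 10, minimum total 15) and glmQLFTest on the samples of each comparison, with Benjamini-Hochberg adjustment over all genes tested. DESeq2 1.42.0, RLE size factors, no filter, robust estimation, all 20 samples in 1 fit, a replicate block and each mouse left out in turn were the alternatives, and the scripts were tested on simulated data. Tables and figures were made in Python 3.11.15. Log2 CPM for likeness used a prior count of 2. BLAST 2.17.0 on the last 500 nt of the transcripts found no copy of the 10 genes with at least 90% identity over 100 nt.

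All 10 genes are named. Of the pathway lists, genes called in any comparison and up to 3 others with the highest mean CPM are named, Adamts1 among the latter. An item of these lists is not reported here. The 10 genes and the lists were chosen with earlier results of these data known. Nts was named after its values were seen. DESeq2 gave no adjusted p for 9 of the 50 tests of the 10 genes. Mice of a group differed by more than counting noise. The labels do not name litters or batches.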

Additional observations from a re-analysis of the deposited data

Results flagged for a closer look

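In each group of 5 mice, the highest and the lowest mouse were compared with the next one, and a mouse was marked where the gap exceeded 0.71 of the range of its group (Dixon's critical value). Of 77 groups of values tested, 22 had such a mouse, 16 for the 10 genes and 6 for other genes. Chance alone marks about 1 in 20 groups, and in the sparse genes a single mouse with reads among mice at 0 meets the criterion by itself.

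In estrus, ctrl mouse 2 stood apart for Ptgs2 (3.11 CPM), Areg (1.71 CPM) and Ereg (6.68 CPM). FL1 mouse 3 in estrus stood apart for Has2 (2.19 CPM) and FL1 mouse 1 for Areg (0.157 CPM, a single read). In diestrus, ctrl mouse 2 stood apart for Has2 (1.61 CPM), Areg (0.134 CPM, a single read) and Ereg (2.15 CPM), and ctrl mouse 3 for Ptx3 (2.54 CPM). Among FL1 mice in diestrus, mouse 5 stood apart for Ptx3 (1.37 CPM) and Areg (0.684 CPM), and mouse 1 for Ereg (2.50 CPM) and Edn2 (4.69 CPM, with 0.824 CPM in the next mouse).

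Of the genes with steadier reads, Btc was lowest in ctrl estrus mouse 3, with 0.574 CPM against 2.08 CPM in the next mouse. Vcan was lowest in ctrl diestrus mouse 4, with 65.4 CPM against 222 CPM. Rgs2 was highest in ctrl estrus mouse 4, with 2193 CPM against 1343 CPM.

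Of the pathway genes, Lhcgr was highest in FL1 estrus mouse 2 with 415 CPM (next 97.4 CPM) and in FL1 diestrus mouse 1 with 177 CPM (next 51.5 CPM). Hpgd was highest in FL1 estrus mouse 4 with 69.4 CPM, Itih5 in ctrl diestrus mouse 5 with 1206 CPM and Akr1c18 in ctrl diestrus mouse 5 with 307 CPM. Tgfbr1 was lowest in ctrl estrus mouse 1 with 61.2 CPM.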

How the results depend on the processing

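None of the 10 genes passed the test under any alternative, and leaving out each mouse in turn gave 0 to 0 of them in every comparison. Of the 160 values of the 8 sparse genes, 77 were 0 and 16 lay between 1 and 3 reads, so that differences below this level were not detectable at this depth. Of 141 values for the 10 genes under the other alternatives, 137 kept their direction. The exceptions were Btc between the lines in estrus (0.00088 with DESeq2, 0.0014 without the filter), Vcan between the stages of FL1 mice (-0.11 with the replicate block) and the interaction of Ptx3 (1.56 with the block). Of 60 values for the pathway genes that passed, 52 still passed under these alternatives, as did 66 of 100 when a mouse was left out.

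The number of genes called over all genes did depend on the settings. Between the lines in estrus, 100 genes became 425 with DESeq2, 373 without the filter and 58 with the block. In diestrus 32 became 118, 1.1e+02 (55 higher and 52 lower) and 13. Between the stages 175 genes in ctrl mice became 526 with DESeq2 and 348 without the filter, and 29 in FL1 mice became 265, 299 and, with all 20 mice in 1 fit, 65. For the interaction 0 became 6 without the filter. Same-numbered mice did not pair (correlations of their deviations between -0.116 and 0.117, and 3 of 20 mice matched their own number best), so the block is given only as a setting. With the block the counts were 58, 13, 158, 28 and 0.

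With a mouse left out, the counts lay between 66 and 130 (lines in estrus), 21 and 32 (lines in diestrus), 77 and 176 (stages in ctrl), 13 and 178 (stages in FL1) and 0 and 0 (interaction). Counts moved by over 1.5 times without FL1 estrus mouse 1 (66) and without FL1 diestrus mouse 4 (21) between the lines. Between the stages in ctrl mice they did so without estrus mouse 2 (88), 3 (91) or 4 (100) and diestrus mouse 3 (64 higher and 40 lower) or 5 (77), and in FL1 mice without diestrus mouse 1 (178), 2 (18), 3 (13), 4 (14) or 5 (14). Log2 values that changed sign ranged, between the lines in estrus, from -0.58 to 0.32 for Btc, -0.0185 to 1.70 for Edn2 and -0.50 to 0.0265 for Rgs2. In diestrus they ranged from -0.27 to 1.30 for Btc and -0.0557 to 0.47 for Vcan. Between the stages they ranged from -1.101 to 0.0177 for Btc and -0.83 to 0.62 for Edn2 in ctrl mice, and from -0.30 to 0.23 for Vcan and -0.0536 to 0.44 for Rgs2 in FL1 mice. Interactions ranged from -0.50 to 5.46 for Ptgs2, -0.0572 to 1.62 for Tnfaip6, -5.05 to 1.63 for Ptx3, -4.10 to 3.83 for Ereg, -0.26 to 1.30 for Btc, -0.51 to 0.0218 for Vcan and -0.31 to 0.22 for Rgs2. The cause of these changes was not tested.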
